A study of Mus musculus with 36 samples.

Results

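The comparison set brain RNA of Ndufs4 knockout mice given CP2 against that of Ndufs4 knockout mice given vehicle, within the animals whose titles carry the letter M. It held 8 of the 36 samples of the series, chosen by title: 5 with CP2 (L266, L291, L292, L298 and L299) and 3 with vehicle (L310, L319 and L322). Every mouse was 37 to 45 days old and was dosed by gavage for 3 days. All 8 samples carry the knockout, and no untreated group is among them. Dose, strain and the deleted part of Ndufs4 are not given in the sources used here. The tissue label is brain, while the design text names hippocampus and cortex, and the mix of the regions in each sample is not given. Knockout mice with the letter F (5 with CP2, 5 with vehicle) and wild-type mice with the letter M (5 with CP2, 3 with vehicle) received the same treatments and serve below to test whether a difference was larger here.

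Complex I is the entry point of electrons from NADH into the mitochondrial respiratory chain. Ndufs4 is one of its accessory subunits, and mice without it develop a severe brain disease used as a model of Leigh syndrome. CP2 acts as an inhibitor of complex I, so these animals had the drug on top of a missing subunit. The question is how brain RNA levels differ under that combination.

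Ndufs4 transcripts were present in every knockout sample. In the order of the samples above, the CP2 samples had 39.1, 35.8, 36.9, 29.6 and 36.7 CPM (counts per gene, scaled to a common library size) and the vehicle samples 27.4, 27.5 and 29.5 CPM. The lowest CP2 sample lay just above the highest vehicle sample. Wild-type vehicle M samples had 44.6 ± 5.60 CPM (SD, n = 3), and knockout vehicle M samples were lower by a log2 fold change of -0.66 (edgeR adjusted p = 0.00895). With CP2, the knockout M level was higher by a log2 fold change of 0.34 (SE 0.10, edgeR adjusted p = 0.0368), and 1 of the 8 fits that left out a sample called it. Without sample L266 its adjusted p was 0.107. Xist, the noncoding RNA of the inactive X chromosome, stood at 47.3 CPM in L291 and at no more than 0.833 CPM in the other 15 M samples, while the 20 F samples had 439 to 798 CPM. Ddx3y, a Y-linked gene, had 80.8 CPM in L291, inside the 61.8 to 84.5 CPM of the other M samples.

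The libraries of the groups also differed. Gene counts ran from 5.66e+07 to 8.86e+07 in the CP2 samples and from 4.66e+07 to 5.50e+07 in the vehicle samples. Reads that fell outside annotated genes made up 5.18%, 7.41%, 7.17%, 9.06% and 7.80% of all rows' reads in the CP2 samples and 11.3%, 12.1% and 13.03% in the vehicle samples. The groups did not overlap. The difference of -4.80 percentage points (two-sided exact permutation p = 0.0179, the smallest that 5 against 3 allows) had an adjusted p of 0.0536 over 6 library measures, by the same exact test. Wild-type M samples had 9.05% to 13.2% outside genes and knockout F samples 5.83% to 11.7%. The knockout CP2 M samples were the low ones among the M groups, except that L298 (9.06%) lay just above the lowest wild-type M sample. The title numbers also separate the groups (L266 to L299 with CP2, L310 to L322 with vehicle). Within these 8 samples neither the title number nor the outside-gene share can be told apart from treatment. The labels do not state that each sample is a separate animal, so p-values measure the spread between these samples.

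Gene by gene, 1306 of 25601 tested genes (5.1%) passed an adjusted p of 0.05 in edgeR's quasi-likelihood test. Of these, 604 (2.36% of tested genes) were higher with CP2 and 702 (2.74%) were lower. The share of calls that were higher was 46.2%, and it was 35.4% with upper-quartile scaling and 40.05% with the size factors of DESeq2. The median absolute log2 fold change of the called genes was 0.48, 48 genes at least doubled and 203 fell to at most 50% of vehicle. Of 37 gene lists, the cytosolic ribosome had the largest share of higher calls (73 of 79), and splicing factors (24 of 35) and noncoding RNAs that stay in the nucleus (9 of 14) had the largest shares of lower calls. At a fold of at least 1.5 as well, 490 genes passed (1.91%, with 0.559% higher and 1.36% lower). When the outside-gene read share was entered as a covariate, 0 genes passed the edgeR test and 2297 had an unadjusted p under 0.05, while DESeq2 without that covariate called 1915. With the covariate, Rpl17 and Rps27a each had an edgeR adjusted p of 0.0704. Without vehicle sample L322 the count was 225, and without CP2 samples L266 and L291 it was 370.

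The sequence around the start sites of some ribosomal and splicing genes is shown as background, and its relation to their levels was not tested. Transcripts of ribosomal protein genes are known to begin with a C and a run of pyrimidines, the 5' TOP motif, through which their translation is controlled. Each line gives 60 bases on the gene's strand, 40 before the annotated start and 20 from it, from RefSeq on GRCm38.p6. Capitals mark CTTTT, and likewise the run CTTTC, and likewise the run CTTCC. The rule for named genes chose the genes, and Rpl17 is not shown, while the letters and the window were chosen after promoters and results had been seen.
Rps12, chr10:23787190-23787249, minus strand: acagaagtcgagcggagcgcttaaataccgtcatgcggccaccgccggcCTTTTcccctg
Rpl34, chr3:130730379-130730438, minus strand: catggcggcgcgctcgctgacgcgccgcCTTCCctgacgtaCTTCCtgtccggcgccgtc
Rbm5, chr9:107770983-107771042, minus strand: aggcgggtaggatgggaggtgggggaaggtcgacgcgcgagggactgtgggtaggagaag
Luc7l3, chr11:94321944-94322003, minus strand: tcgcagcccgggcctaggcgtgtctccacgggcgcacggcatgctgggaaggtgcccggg
Prpf4b, chr13:34875489-34875548, plus strand: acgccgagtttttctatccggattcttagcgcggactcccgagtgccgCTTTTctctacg

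Of 68 ribosomal promoter windows, 37 (54.4%) held 1 of the 3 letter runs on the gene's strand, beside 13 of 45 (28.9%) in the splicing list and 24.8% of all 32851 windows in the table. On the other strand the shares were 27.9%, 24.4% and 25.4%. The Prpf4b window, of a gene that fell, holds such a run too. A match describes the letters only, and it counts anywhere in the window, also before the annotated start, so it need not be a 5' TOP motif.

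Among the 79 genes of the cytosolic ribosome, which carry out protein synthesis, 73 rose with CP2 and none fell. Rps12 (ENSMUSG00000061983), a protein of the small subunit, had 226, 223, 215.8, 166 and 241 CPM with CP2 against 150, 129 and 127 CPM with vehicle. L298 was the lowest of the CP2 samples. The log2 fold change was 0.66 (SE 0.10, edgeR adjusted p = 0.000274). Rpl34 (ENSMUSG00000062006), of the large subunit, had 173, 160, 147, 131 and 167 CPM against 104, 102 and 99.1 CPM. Its log2 fold change was 0.61 (SE 0.09, edgeR adjusted p = 0.000287). Rpl17, at 393, 388, 320, 310 and 368 CPM against 233.05, 249 and 255 CPM, rose by 0.54 on the log2 scale (SE 0.08, edgeR adjusted p = 0.000278). Rps27a, which encodes a ribosomal protein fused to ubiquitin, had 221, 215, 209, 180 and 208 CPM against 151, 143 and 145 CPM. Its log2 fold change was 0.50 (SE 0.08, edgeR adjusted p = 0.000385). All 4 genes were called in each of the 8 fits that left out a sample. They were named from called genes whose groups do not overlap, so their separation follows from that choice.

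Over the whole list the log2 fold change was positive for all 79 genes, with a median of 0.43 against 0.00 over all tested genes, and in 60 genes no CP2 sample fell to the vehicle range. Complete separation in that direction was seen in 6.63% of all tested genes. Rpl35a had the largest log2 fold change (0.72) and Rpl22 the smallest (0.24). Among the 6 that did not pass were Rpl41, Rps29, Rpl38, Rplp2 and Rpl39, at log2 fold changes of 0.36 to 0.70. The number called was 37 without vehicle sample L322, 44 without L319, and 78 without CP2 sample L298. Given the outside-gene read share as a covariate, the median was 0.39 and none of the 79 was called, while 73 had an unadjusted p under 0.05. Ribosomal protein genes have many near-identical pseudogenes, and how the authors' counting shared reads among them is not given in the sources used here. Reads with more than 1 alignment made up 5.19% ± 0.310 (SD, n = 5) in CP2 samples against 4.44% ± 0.134 (SD, n = 3) in vehicle samples, and their part in the ribosomal levels was not tested.

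**Figure D1:**
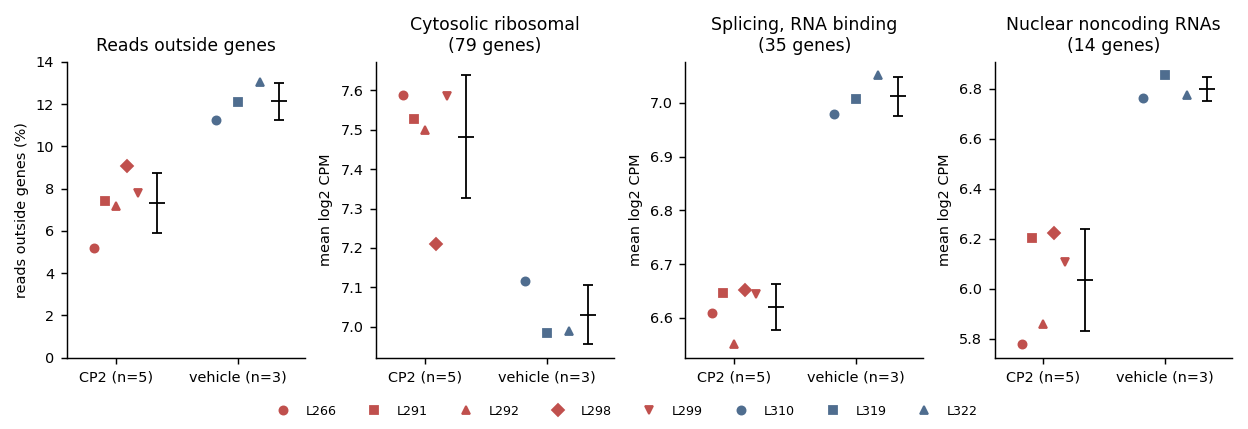
Values per knockout M sample for the share of reads outside genes (percent) and the mean log2 CPM of the cytosolic ribosomal, splicing and nuclear noncoding lists, with CP2 samples in red and vehicle samples in blue. Points are samples, and the black mark is the group mean with its SD. The groups do not overlap in any of the 4 panels, and L298 has the highest outside share (9.06%) and the lowest ribosomal level of the CP2 samples.

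Splicing and RNA-binding genes moved the other way: 24 of 35 fell and none rose. Rbm5 (ENSMUSG00000032580), an RNA-binding regulator of splice site choice, had 96.9, 90.8, 88.1, 104 and 97.3 CPM with CP2 against 136, 140 and 137 CPM with vehicle. No sample crossed between the groups, and the log2 fold change was -0.53 (SE 0.08, edgeR adjusted p = 0.000308). Luc7l3, a protein with an arginine- and serine-rich tail, had 106, 102, 90.2, 101 and 96.8 CPM against 145, 153 and 189 CPM. The vehicle samples were spread more widely than the CP2 samples, and the log2 fold change was -0.71 (SE 0.12, edgeR adjusted p = 0.00045). Prpf4b, a kinase that acts on the splicing machinery, had 68.2, 70.7, 65.0, 69.3 and 62.7 CPM against 87.2, 93.1 and 96.9 CPM, and its log2 fold change was -0.46 (SE 0.08, edgeR adjusted p = 0.00045). The list's median was -0.34, and in 29 of the 35 genes every CP2 sample lay below every vehicle sample, beside 8.64% of all tested genes. Srsf3, Hnrnpa2b1, Cirbp and Rbm3 were among the 11 that did not pass, at log2 fold changes of -0.05, -0.02, -0.11 and -0.13. Cirbp and Rbm3 are induced by cold.

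Noncoding RNAs that stay in the nucleus had the larger differences. Of 14 tested, 9 fell and none rose, with a median log2 fold change of -0.99. Miat (ENSMUSG00000097767), a long RNA of neuronal nuclei, had 102, 107, 102, 141 and 124 CPM with CP2 against 284.6, 304 and 333 CPM with vehicle. The highest CP2 sample, L298, had less than 50% of the lowest vehicle sample, and the log2 fold change was -1.42 (SE 0.24, edgeR adjusted p = 0.000912). Snhg14, the long transcript that runs antisense to Ube3a, had 62.4, 73.1, 60.3, 73.6 and 53.4 CPM against 92.1, 124 and 120 CPM, a log2 fold change of -0.79 (SE 0.14, edgeR adjusted p = 0.000862). Mirg, from the imprinted Dlk1-Dio3 cluster, had 5.93, 9.84, 5.16, 9.96 and 8.06 CPM against 19.99, 18.4 and 17.3 CPM, a log2 fold change of -1.26 (SE 0.21, edgeR adjusted p = 0.000658). Meg3 and Malat1, named after their values were seen, had means of 1002 ± 207 and 1034 ± 396 CPM (SD, n = 5) with CP2 against 2612 ± 219 and 2336 ± 99.9 CPM (SD, n = 3). Neat1, Airn, Pvt1, Peg13 and Pantr1 did not pass, at log2 fold changes of -0.39, -0.16, 0.01, 0.05 and 0.19. The outside-gene read share moved with both of these lists: given it as a covariate, the median was -0.17 for the splicing list and -0.28 for the noncoding list, and neither list held a call by edgeR, with 11 and 6 genes at an unadjusted p under 0.05. Without vehicle sample L322 the splicing list had 11 calls and the noncoding list 5, and without L319 the splicing list had 15.

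Among called genes with a mean of at least 10 CPM and no overlap between the groups, 5 lower ones were taken by smallest p. They were Crebzf, Hook1, Zranb2, Celsr3 and Ubp1. Genes without a symbol, or with one that starts with Gm and a digit or ends with Rik, were left out. Crebzf, a transcription factor of the basic leucine zipper type, had 49.8, 51.4, 50.6, 48.9 and 51.0 CPM with CP2 against 71.1, 70.2 and 81.8 CPM with vehicle (log2 fold change -0.56, SE 0.08, edgeR adjusted p = 0.000221). The CP2 samples lay close together, and their separation from the vehicle samples follows from that choice. Hook1, which ties vesicle cargo to microtubule motors, had 44.5, 45.7, 43.5, 49.7 and 39.5 CPM against 76.6, 75.7 and 85.3 CPM, and its log2 fold change was -0.83. Celsr3, a cadherin that guides axons, fell by 0.91 on the log2 scale, from 121 ± 6.93 CPM (SD, n = 3) to 64.5 ± 9.05 CPM (SD, n = 5). Zranb2, a splicing protein, and Ubp1, a transcription factor, fell by 0.56 and 0.58. Among the higher genes Pla2g16 (ENSMUSG00000060675), a phospholipase, had 59.1, 56.02, 58.3, 47.6 and 56.6 CPM against 32.0, 40.1 and 32.9 CPM, a log2 fold change of 0.67 (SE 0.09, edgeR adjusted p = 0.000221). All 6 were called in each fit that left out a sample.

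**Figure D2:**
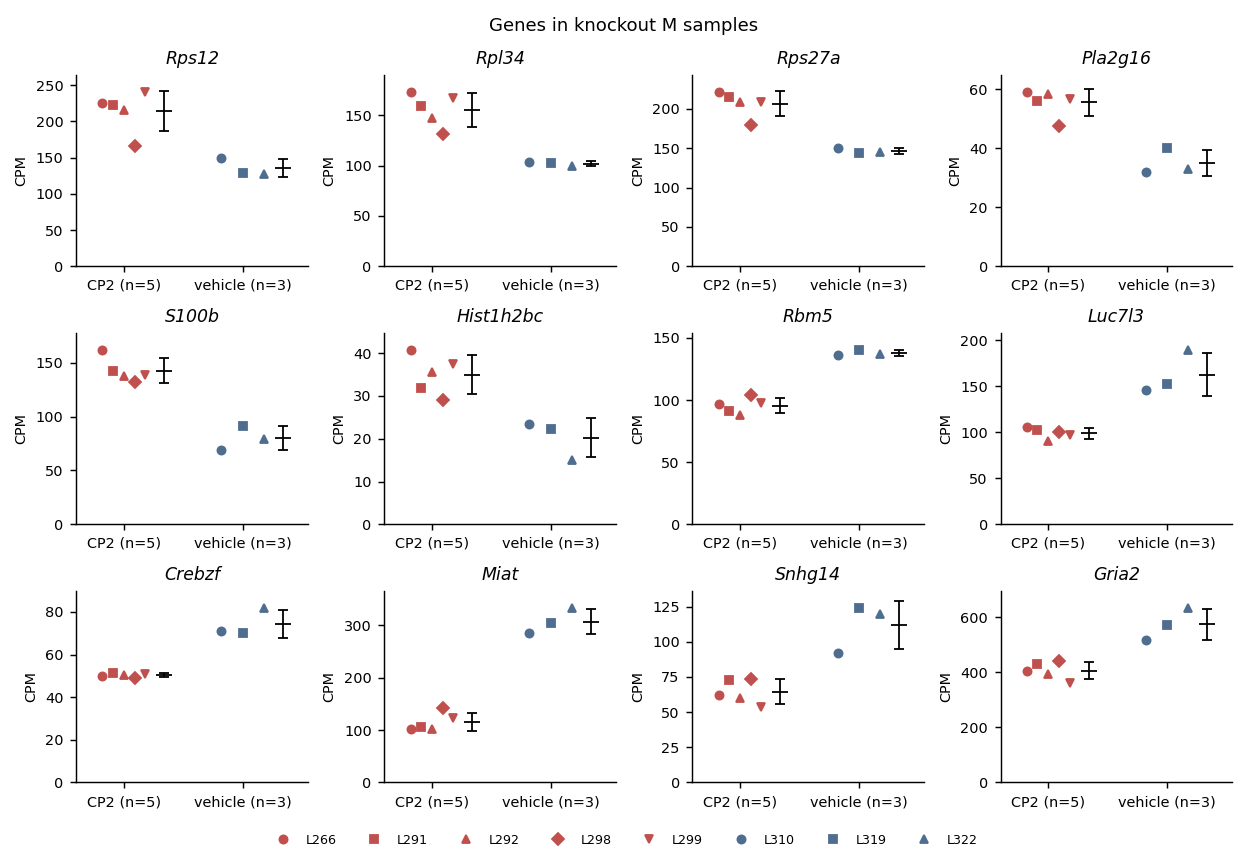
CPM per knockout M sample of 12 genes, with CP2 samples in red and vehicle samples in blue. The vertical axes start at 0, and the black mark is the group mean with its SD. In each of the 12 genes the groups do not overlap. Rps12, Rpl34, Rps27a, Pla2g16, S100b and Hist1h2bc were higher with CP2, and Rbm5, Luc7l3, Crebzf, Miat, Snhg14 and Gria2 were lower. Rps12, Rpl34, Rps27a, Pla2g16 and Crebzf were chosen from genes without overlap.

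The largest fold changes were ranked among called genes with a mean of at least 1 CPM and no overlap between the groups. The same symbols as above were left out. The genes at the top were of low abundance. Cngb1, a subunit of cyclic nucleotide-gated channels, had 1.94, 3.71, 1.95, 3.05 and 1.19 CPM with CP2 and 0.288, 0.592 and 0.626 CPM with vehicle, a log2 fold change of 2.22 (SE 0.56, edgeR adjusted p = 0.0157). Serpinb6b, an inhibitor of serine proteases, had 2.02, 3.56, 3.91, 1.70 and 2.26 CPM against 0.741, 1.12 and 0.571 CPM, a log2 fold change of 1.73. Cngb1 was called in 5 and Serpinb6b in 8 of the 8 fits that left out a sample, while their separation follows from the choice. The other 8 of the 10 largest increases were Dmkn, Zfp474, Ptpn18, Ppp1r3b, Rsph1, Hydin, Apoc1 and Serpinb1b, at log2 fold changes of 1.26 to 1.63. Of the same 8 fits, Ptpn18 was called in 8, Dmkn and Zfp474 in 6, and Rsph1, Hydin and Serpinb1b in 5. Ppp1r3b was called in 4 and Apoc1 in 3. Rsph1 and Hydin build motile cilia, and Ppp1r3b directs a phosphatase to glycogen.

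The 10 largest decreases held 2 microRNA loci, 2 antisense transcripts and 1 transcript of an unsettled class, beside 5 protein-coding genes. The protein-coding ones were Tgfbr3l, Ap1g2 (an adaptor subunit of vesicle coats), Muc3a (a mucin), Ccdc142 and Ing4 (a chromatin reader), at log2 fold changes of -1.62 to -1.43. Of the 8 fits that left out a sample, Muc3a was called in 8, Tgfbr3l and Ap1g2 in 7, Ing4 in 6 and Ccdc142 in 1. Srrm4os, antisense to the neuronal splicing factor gene Srrm4, had 0.658, 1.42, 0.734, 2.12 and 0.665 CPM with CP2 against 3.99, 4.17 and 3.85 CPM with vehicle, a log2 fold change of -1.85 (SE 0.35, edgeR adjusted p = 0.0014). Atcayos fell by 1.45 and AC124169.1 by 2.13. Strand use in the counting is not given in the sources used here, so reads of an antisense gene and of its partner cannot be told apart.

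Both microRNA loci lie inside introns of protein-coding genes, and the library selected polyadenylated RNA, so the counts are of longer RNA that covers the hairpin and not of the mature microRNA. The hairpins show how short these loci are. They come from RefSeq on GRCm38.p6, with the mature arms in capitals.
Mir186, chr3:157544279-157544349, plus strand: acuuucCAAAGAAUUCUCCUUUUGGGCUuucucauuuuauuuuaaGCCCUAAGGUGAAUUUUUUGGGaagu
Mir5125, chr17:23823291-23823369, plus strand: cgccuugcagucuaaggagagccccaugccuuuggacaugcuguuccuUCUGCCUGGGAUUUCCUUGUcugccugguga

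The Mir186 locus, within an intron of Zranb2, had 0.789, 0.365, 0.431, 0.785 and 0.602 CPM with CP2 against 1.61, 2.28 and 2.08 CPM with vehicle, a log2 fold change of -1.74 (SE 0.41, edgeR adjusted p = 0.00915). Its host Zranb2 fell by 0.56. The Mir5125 locus, within an intron of the splicing gene Srrm2, had 3.02, 3.47, 3.04, 4.45 and 2.83 CPM against 8.15, 8.86 and 10.6 CPM, a log2 fold change of -1.46 (SE 0.26, edgeR adjusted p = 0.000862). Srrm2 itself fell by 0.73 (edgeR adjusted p = 0.00142). Both loci were named for the size of their decrease and the separation of the groups, so a decrease beyond that of the host follows in part from that choice.

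Loci inside introns were then compared with their hosts over whole annotation classes. Of 35 tested microRNA loci inside an intron of a single host gene, 27 had a log2 fold change below that of the host, with a median of -1.08 against -0.10 for the hosts. The count was 156 of 184 for sense-intronic transcripts, 41 of 46 for small nucleolar RNAs and 929 of 1056 for TEC loci, a GENCODE class of transcribed stretches that await an experimental check. Of these loci 2, 5, 1 and 34 were called lower, in that order. Such loci are near the floor: the mean log2 CPM of TEC loci ran from -2.73 (L266) to -1.30 (L322). The filter could pass a locus through 3 samples, the size of the vehicle group, which favours decreases, so these counts do not test a difference from the hosts. Over all 1807 tested TEC loci the median log2 fold change was -0.87, with 67 called lower and none higher. Of 1721 antisense transcripts 34 were lower and 1 higher, at a median of -0.38, and of 1458 long intergenic RNAs 40 were lower and 4 higher, at a median of -0.13. Over all tested genes 2.74% were called lower, beside 3.71% of TEC loci, 3.37% of microRNA loci, 3.17% of small nucleolar RNAs and 2.58% of sense-intronic transcripts. These shares lay near that of all genes. Among 16764 protein-coding genes 588 were higher and 506 lower, at a median of 0.05. The remaining classes had 5 lower calls in 194 sense-intronic transcripts, 3 in 89 microRNA loci, 2 in 63 small nucleolar RNAs, and 8 lower with 3 higher in 1498 processed pseudogenes. TEC loci held 0.0787% to 0.106% of gene counts with CP2 and 0.139% to 0.161% with vehicle. Given the outside-gene read share as a covariate, the TEC median was 0.14.

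Exonic length ordered the protein-coding calls as well. Genes were split by exonic length into 5 groups of equal size. Of the shortest group, with exons of up to 2288 bases in all, 199 genes were higher and 17 lower. Of the longest, from 7273 bases, 59 were higher and 253 lower. The groups between had 156 and 38, 100 and 76, and 74 and 122. The median log2 fold change went from 0.20 in the shortest to -0.05 in the longest group, and from 0.12 to -0.05 with the covariate.

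**Figure D3:**
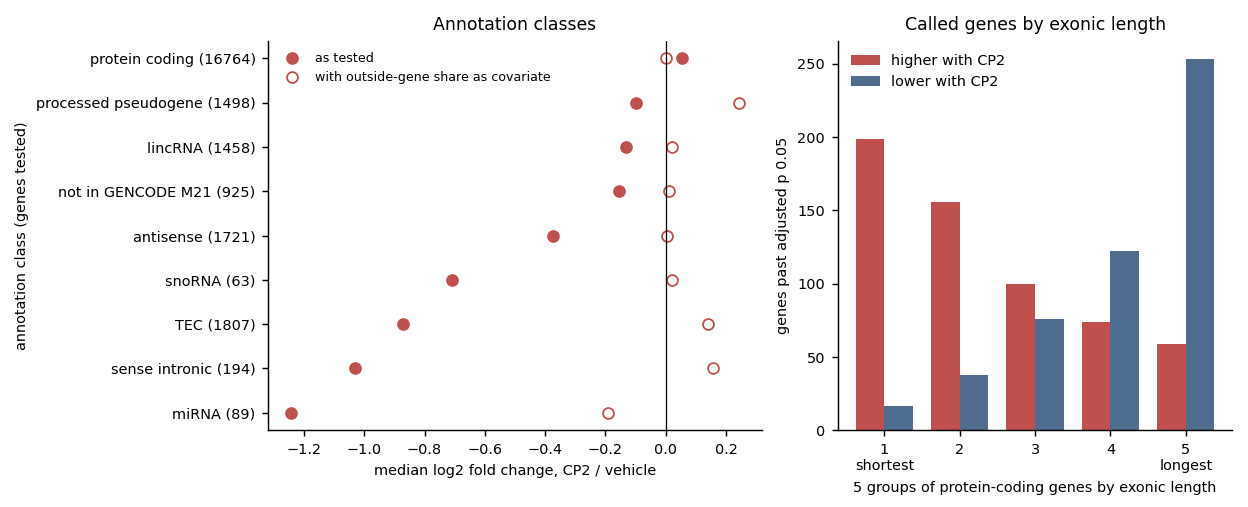
Left, median log2 fold change (CP2 over vehicle, knockout M) of each annotation class, with filled circles as tested and open circles given the outside-gene read share as a covariate. Right, the number of protein-coding genes called higher (red) and lower (blue) in each of 5 groups of exonic length. Noncoding and intronic classes lie below 0 as tested and most lie near or above 0 with the covariate, and called genes pass from mostly higher (199 against 17) in the shortest group to mostly lower (59 against 253) in the longest.

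In the 28 samples of the other 6 groups, the share of reads outside genes was set against list levels, each as a deviation from its group mean. These relations were chosen after the knockout M results were seen, and 4 were computed. The splicing list had Pearson's r = 0.89 and Spearman's rho = 0.92, the nuclear noncoding list 0.86 and 0.88, and TEC loci 0.93 and 0.92. Each permutation p was 1e-05, the smallest that 100000 permutations within groups can give, and 1.33e-05 after Benjamini-Hochberg adjustment. The cytosolic ribosomal list had r = -0.03 and rho = -0.12 (permutation p = 0.909 and 0.596, the same after adjustment). Without the 2 samples farthest from the median share, r was 0.84, 0.82, 0.90 and -0.25.

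Genes of the respiratory chain, the pathway that CP2 acts on, were mostly higher by small amounts. Of 35 nuclear genes of complex I, 7 rose, none fell and 34 had a positive log2 fold change, with a median of 0.30. That is 20% called, where 2.36% of all tested genes were called higher. Ndufb9, a membrane-arm subunit, had 141, 124, 136, 106 and 142 CPM with CP2 against 102, 91.3 and 102 CPM with vehicle, a log2 fold change of 0.40 (SE 0.10, edgeR adjusted p = 0.0141). Every CP2 sample lay above every vehicle sample, with L298 closest to them. Ndufb11 and Ndufb10 rose by 0.39 and 0.41, while the core subunits Ndufs1, Ndufv1 and Ndufs3 had log2 fold changes of -0.02, 0.04 and 0.05 that did not pass. Fits with a sample removed called 0 (without vehicle L319 or L322) to 14 (without CP2 L298) of the 35, and with the covariate the median was 0.13.

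Complexes II to V gave 12 higher of 39 and none lower, at a median of 0.31. That is 30.8% called, where 2.36% of all tested genes were called higher. The share was 13.3% for complex I assembly factors, 7.69% for genes of mitochondrial DNA and 8.97% for mitochondrial ribosomal proteins. Usmg5, a small subunit of ATP synthase, had 196, 165, 169, 126 and 182 CPM against 119, 122 and 113 CPM, a log2 fold change of 0.51 (SE 0.11, edgeR adjusted p = 0.00395). Cox4i1, of cytochrome c oxidase, rose by 0.43, and Uqcrh, of complex III, by 0.41 with 1 CP2 sample inside the vehicle range. The 12 calls fell to 0 without vehicle sample L322, and without CP2 sample L298 there were 21. Of 15 complex I assembly factors, Ndufaf2 and Ndufaf3 rose, by 0.54 and 0.39, and neither was called without L266, L299, L319 or L322. Among 13 genes of mitochondrial DNA, mt-Cytb rose by 0.32 (edgeR adjusted p = 0.0442), with 7234 to 8816 CPM with CP2 and 6018 to 6466 CPM with vehicle, and all 13 had a positive log2 fold change. The mt-Cytb call was made in 1 of the 8 fits that left out a sample, the one without L298. Mitochondrial ribosomal proteins gave 7 higher of 78, at a median of 0.17, led by Mrpl28, Mrpl51 and Mrps14 at 0.41, 0.40 and 0.43. That count was 0 without L322, 2 without L266 or L319, 4 without L292 and 14 without L298, and the median with the covariate was 0.05.

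Stress and metabolic lists varied in their share of calls, beside 5.1% called in either direction over all tested genes. It was 28.6% for the antioxidant list, 13% for glycolysis and 8% for ATF4 targets, and 5.88%, 4.55% and 3.23% for hypoxia targets, chaperones and proteasome. In the antioxidant list, whose genes NRF2 controls, 6 of 21 rose, among them Prdx1 (a peroxidase, 0.35), Ftl1 (ferritin light chain, 0.43) and Cat (catalase, 0.45), and Hmox1 and Nqo1 did not pass at 0.40 and 0.46. That count was 1 without vehicle sample L322, 2 without L319 or L299, and 9 without L298. Of 25 ATF4 targets, Psat1 and Phgdh, enzymes of serine synthesis, rose by 0.25 and 0.37. Hspe1, a mitochondrial chaperone, rose by 0.53 as the 1 call among 22 chaperones, and Psmc5 by 0.23 as the 1 call among 31 proteasome genes. In glycolysis Aldoc and Ldhb rose by 0.39 and 0.29 and Pfkp fell by 0.30, out of 23 genes. Ndrg1 rose by 0.37, the 1 call among 17 hypoxia targets, and Hist1h2bc rose by 0.79, the 1 call among 18 histone genes. Of the 8 fits that left out a sample, Psmc5, Ldhb and Ndrg1 were called in 1, and Psat1 and Phgdh in 3. Hspe1, Aldoc, Pfkp and Hist1h2bc were called in 7. None of 19 genes of AMPK signalling and mitochondrial biogenesis, 22 of cholesterol synthesis, 23 interferon-stimulated, 21 immediate early or 18 clock genes was called by edgeR as tested. Their medians were -0.01, 0.18, 0.11, 0.12 and -0.16. At an unadjusted p under 0.05 stood 3, 2, 3, 0 and 4 of them, and DESeq2 called 2 clock genes and none of the others. With a sample left out, edgeR called up to 2 clock genes and up to 1 interferon-stimulated gene.

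Glial lists held calls in the higher direction and none lower, with most members not passing. The shares called were 9.09% for astrocyte, 26.3% for homeostatic microglia, 9.52% for disease-associated microglia and 13.6% for myelin genes, where 2.36% of all tested genes were called higher. S100b (ENSMUSG00000033208), a calcium-binding protein of astrocytes, had 162, 143, 138, 132 and 139 CPM with CP2 against 69.3, 91.3 and 78.9 CPM with vehicle, without overlap (log2 fold change 0.84, SE 0.14, edgeR adjusted p = 0.00064). Glul, glutamine synthetase, rose by 0.32, and these were the 2 calls among 22 astrocyte genes, of which 6 had a negative log2 fold change. Homeostatic microglia genes gave 5 higher of 19, with Tmem119 and Ctss at 0.52 and 0.47, and all 19 had a positive log2 fold change (median 0.39). Of 21 genes of disease-associated microglia, Ctsd and Ctsz rose, by 0.32 and 0.47. Of 22 myelin genes, Enpp6, Mbp and Olig1 rose, by 0.76, 0.58 and 0.41, and all 22 had a positive log2 fold change (median 0.40). Mbp, myelin basic protein, had 6109, 3478, 5797, 4287 and 6524 CPM with CP2 against 3443, 3705 and 3364 CPM, so L291 lay inside the vehicle range. With the outside-gene read share as a covariate the medians were 0.09 for astrocyte, 0.13 for homeostatic microglia, 0.34 for disease-associated microglia and 0.19 for myelin genes. In bulk tissue, a change in the number of cells of a type and a change in RNA per cell cannot be told apart.

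Neuronal lists held 6 calls, all lower, in receptor, channel and presynaptic genes. The shares called were 8.33% for glutamate and GABA receptors, 5.56% for potassium channels and 3.85% for presynaptic genes, where 2.74% of all tested genes were called lower. Gria2 (ENSMUSG00000033981), an AMPA receptor subunit, had 404, 429, 393, 439 and 361 CPM with CP2 against 518, 570 and 632 CPM with vehicle, without overlap (log2 fold change -0.50, SE 0.09, edgeR adjusted p = 0.000926). Grin1 and Grik2, of NMDA and kainate receptors, fell by 0.33 and 0.38, and 33 of 36 glutamate and GABA receptor genes did not pass. Kcnt1 fell by 0.61 among 36 potassium channel genes, of which 2 were called lower, and Unc13b, which primes synaptic vesicles, by 0.44 among 26 presynaptic genes. Gria2 was called in each of the 8 fits that left out a sample, Grik2 in 4, and Grin1, Kcnt1 and Unc13b in 2. None of 22 interneuron, 10 hippocampal CA, 10 dentate, 13 striatal, 9 thalamic or 19 cortical layer genes was called by edgeR as tested or by DESeq2. Their medians were -0.01, -0.16, -0.24, -0.14, 0.24 and -0.08, with 2, 0, 1, 0, 1 and 0 genes at an unadjusted p under 0.05. Other edgeR settings called at most 1 gene in each of these lists, and 0 in the striatal list.

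Genes of the ventricle lining differed most among the cell type lists. Of 15 choroid plexus and ependyma genes, 5 rose (33.3%, where 2.36% of all tested genes were called higher) and all 15 had a positive log2 fold change. Their median was 1.002, and 1.59 with the covariate. Dnaic2, a dynein chain of motile cilia, had 5.03, 5.48, 6.33, 4.07 and 4.51 CPM with CP2 against 2.68, 2.22 and 1.82 CPM with vehicle, a log2 fold change of 1.18 (SE 0.26, edgeR adjusted p = 0.00503). Foxj1, the transcription factor of ciliated cells, rose by 0.76 with overlap. The named calls (Dnaic2, Rsph1 and Foxj1) are cilia genes, whereas Ttr, the main product of choroid plexus, had a log2 fold change of 1.002 that did not pass. Summed choroid plexus markers ran from 195 to 2756 CPM with CP2 and from 586 to 1099 CPM with vehicle, and ependyma markers from 21.3 to 51.7 CPM and from 13.98 to 28.02 CPM, with 3 of 4 called higher. Itm2a, of endothelium, rose by 0.48 as the 1 call among 20, and Bpgm by 0.27 as the 1 call among 8 red cell genes. Itm2a was called in 7 and Bpgm in 2 of the 8 fits that left out a sample. None of 15 meningeal and mural genes was called by edgeR as tested or by DESeq2, and other edgeR settings called at most 1. Their median was 0.48, with 3 at an unadjusted p under 0.05. Without vehicle sample L322 none of the genes of the microglia, myelin or ventricle lists was called by edgeR, and without L319 the homeostatic microglia list had 0 and the ventricle list 1. The medians of homeostatic microglia, myelin and ventricle genes over fits with a sample removed ran from 0.31 to 0.55, from 0.30 to 0.54 and from 0.83 to 1.29.

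Markers of other regions were also summed. Hypothalamic markers ran from 65.6 to 222 CPM with CP2 and from 15.99 to 58.7 CPM with vehicle, cerebellar ones from 27.0 to 31.7 CPM and from 20.2 to 24.3 CPM, and mural ones from 221 to 243 CPM and from 173 to 200 CPM. These 3 of 20 marker sets did not overlap between the groups, each higher with CP2, and edgeR called no gene of theirs. Among all tested genes 6.63% separated in that direction and 8.64% in the other. With 20 sets, the count cannot be set apart from those shares. The cerebellar markers Pcp2 and Gabra6 were under 1 CPM in all 8 samples. Neuronal markers ran from 4696 to 5596 CPM and from 5366 to 5574 CPM, and microglial ones from 314 to 405 CPM and from 276 to 325 CPM, with 3 of 5 called higher. The part of tissue makeup in the glial, neuronal and ventricular results was not tested.

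**Figure D4:**
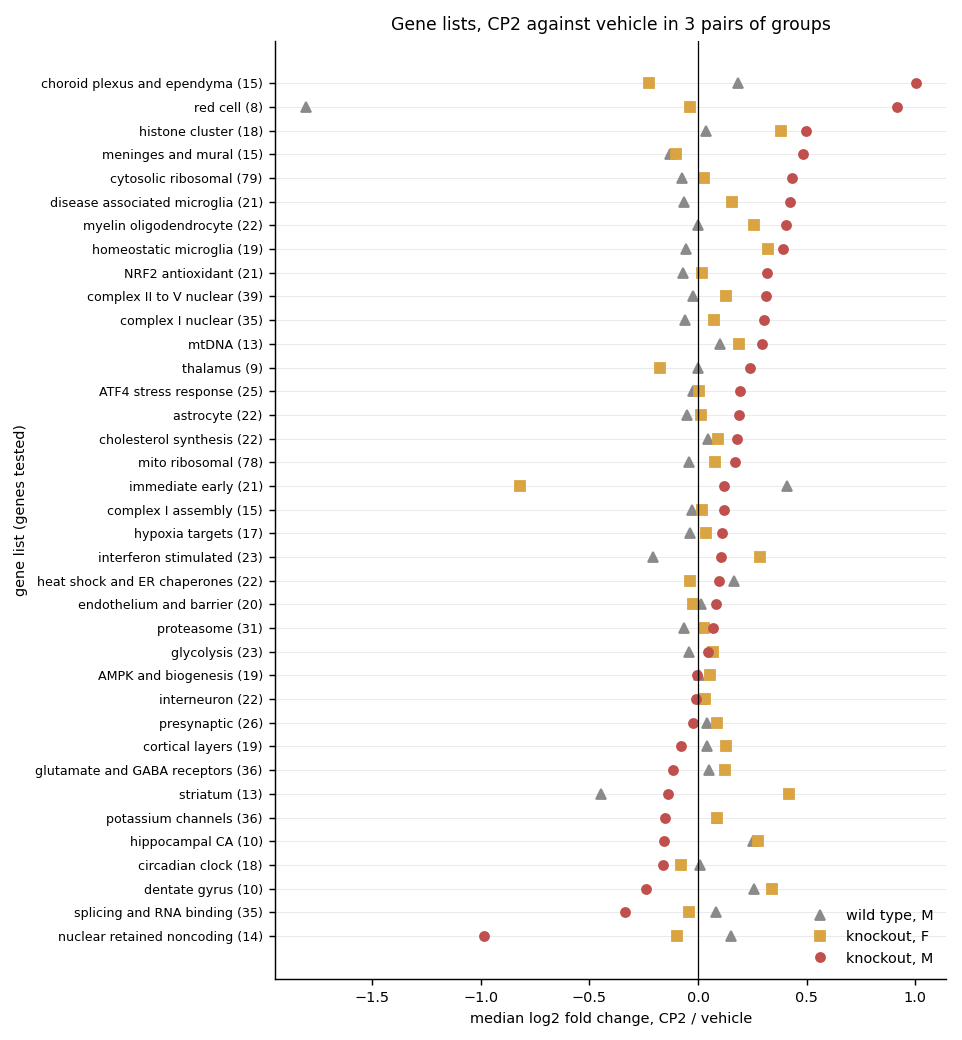
Median log2 fold change (CP2 over vehicle) of each of 37 gene lists in knockout M (red circles), knockout F (yellow squares) and wild-type M (grey triangles), ordered by the knockout M value. The numbers in brackets are tested genes. The cytosolic ribosomal list stands at 0.43 in knockout M beside 0.03 and -0.07, and the nuclear noncoding list at -0.99 beside -0.10 and 0.15.

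Whether CP2 differences were larger here than in the other groups was tested as a difference of log2 fold changes. Against knockout F, 177 genes passed (0.691% of those tested, with 0.344% higher and 0.348% lower), and against wild-type M 507 passed (1.98%, with 0.844% higher and 1.14% lower). Of the cytosolic ribosomal list, 18 genes were higher than in knockout F and 44 than in wild-type M. Of the splicing list 4 and 16 were lower, and of the nuclear noncoding list 1 and 7. Those counts depended on single samples: without vehicle sample L322 they were 0 against knockout F and 81 against wild-type M over all genes.

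Eif3f, of translation initiation, had 170, 167, 154, 156 and 176 CPM with CP2 and 124, 131 and 126 CPM with vehicle in knockout M. In knockout F it had 152 ± 3.12 and 162 ± 9.09 CPM (SD, n = 5 each), and in wild-type M 113 ± 9.10 (SD, n = 5) and 128 ± 3.56 CPM (SD, n = 3). Its difference of log2 fold changes was 0.46 (SE 0.08, edgeR adjusted p = 0.0142) against knockout F and 0.55 (SE 0.09, edgeR adjusted p = 0.00276) against wild-type M. Rpl17 differed by 0.69 from wild-type M, where CP2 samples had 233.6 ± 23.7 CPM (SD, n = 5) against 261 ± 16.9 CPM (SD, n = 3) under vehicle. In knockout F it had 364 ± 22.0 and 366 ± 29.0 CPM (SD, n = 5 each), close to the 356 ± 38.7 CPM of the CP2 samples here (SD, n = 5), while the vehicle samples here had 245 ± 11.1 CPM (SD, n = 3). Timp3, an inhibitor of matrix proteases, differed by 0.81 from knockout F. It rose here by 0.38 and had 85.7 ± 13.8 and 116 ± 13.4 CPM (SD, n = 5 each) in knockout F with CP2 and vehicle.

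Zbtb18, a repressor that shapes cortical neurons, Mical2, which oxidizes actin, and Cacna1a, the pore of P/Q-type calcium channels, had lower differences against knockout F, of -0.82, -0.83 and -0.79. In knockout F these genes rose with CP2, by 0.56, 0.48 and 0.42, while here the log2 fold changes were -0.26, -0.35 and -0.37, of which Zbtb18 did not pass. Hook1, Gria2 and Crebzf differed from wild-type M by -1.05, -0.74 and -0.73, and Pla2g16 by 0.78. For Hook1 the wild-type M mean was 70.1 ± 10.9 CPM under CP2 (SD, n = 5) against 60.0 ± 5.88 CPM under vehicle (SD, n = 3). The knockout vehicle M samples also enter any contrast with wild-type vehicle, where Pla2g16 had a log2 fold change of -0.46 and Hook1 of 0.40, so these values share samples with those above.

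**Figure D5:**
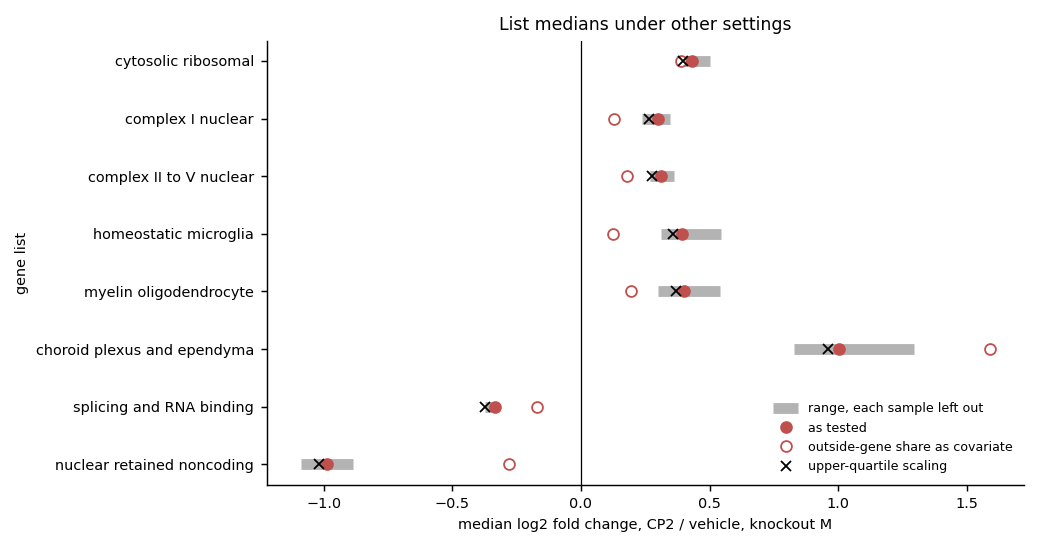
Median log2 fold change of 8 gene lists in knockout M (CP2 over vehicle) as tested (filled circles), given the outside-gene read share as a covariate (open circles), with upper-quartile scaling (crosses) and over fits with a sample removed (grey bars). The direction of each of the 8 medians was the same under these settings, and the covariate moved the nuclear noncoding list from -0.99 to -0.28 and the ribosomal list from 0.43 to 0.39. The 8 lists were picked for the figure, and some lists not drawn changed sign with the covariate. Medians went from 0.18 to -0.17 for cholesterol synthesis, 0.04 to -0.12 for glycolysis and 0.11 to -0.07 for interferon-stimulated genes. They went from 0.11 to -0.04 for hypoxia targets, 0.07 to -0.05 for proteasome and 0.12 to -0.02 for complex I assembly factors. The remaining lists kept their direction.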

How the data were processed

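The authors deposited raw counts per Ensembl gene, made with STAR and HTSeq on GRCm39 per the submitters' processing notes; versions, annotation release and strand use are not given in the sources used here. Per the labels' protocols, RNA was extracted with Trizol and enriched for polyA. The 5 summary rows were left out of library sizes. Symbols, classes and lengths came from GENCODE M21 (GRCm38), which named 52073 of 56980 identifiers (91.4%), so no coordinates are given for counts. The edgeR 4.0.16 quasi-likelihood test (R 4.3.3, TMM, filterByExpr, robust fits) was fitted to the 36 samples jointly, one level per group, and p-values were adjusted by Benjamini-Hochberg over 25601 genes. List levels are mean log2 CPM with a prior count of 2. On simulated data with 200 genes of 24782 changed 3-fold, 93% were called with 12 unchanged genes. The changed genes had over 1 CPM, and no difference in library quality between groups was simulated. Called genes here had a median absolute log2 fold change of 0.48, so neither figure gives a rate for these data. Pairs of CP2 samples and of vehicle samples correlated at 0.968 to 0.978 (Pearson, log2 CPM), and none agreed within sampling noise.

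Named genes were Ndufs4, Xist and Ddx3y, together with called genes without overlap between the groups. These were the 10 largest changes each way (mean of at least 1 CPM) and the 5 smallest p each way (at least 10 CPM). Genes without a symbol, or with one that starts with Gm and a digit or ends with Rik, were left out of both. Up to 3 called genes per list and the 3 smallest p each way of both differences were added. The members, the 37 lists and this rule were chosen with earlier results of these data known. The splits by class, host gene and length, the correlations, and the fits with title number or with protein-coding genes only were added after the results were seen. Alternatives used DESeq2 1.42.0 and sva 3.50.0.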

Additional observations from a re-analysis of the deposited data

Results flagged for a closer look

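Among 94 values examined for a sample apart from its group, 6 stood out, where chance gives about 1 in 20. In the CP2 samples of knockout M, L292 had 8.86e+07 gene counts, and ENSMUSG00000119584 held 1.01% of counts in L266. Xist was at 47.3 CPM in L291. L298 was low for Zfp474 (0.876 CPM), Pla2g16 (47.6 CPM) and Uqcrh (99.3 CPM).

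The CP2 effect in knockout M differed from that in knockout F, by the test of the difference itself, for Eif3f (0.46), Timp3 (0.81), Rps27a (0.54), Zbtb18 (-0.82), Mical2 (-0.83) and Cacna1a (-0.79). It differed from that in wild-type M for Eif3f (0.55), Rpl17 (0.69), Pla2g16 (0.78), Crebzf (-0.73), Hook1 (-1.05) and Gria2 (-0.74). All are differences of log2 fold changes from edgeR. With the outside-gene read share in the model, edgeR called 13 genes for the difference from knockout F, 10 of them among the 177 called without it. For the difference from wild-type M it called 0, with 2130 genes at an unadjusted p under 0.05, and DESeq2 without the covariate called 1058.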

How the results depend on the processing

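The count of 1306 called genes was 0 given the outside-gene read share as a covariate, 3 with 2 surrogate variables, 370 without L266 and L291, 554 given the hippocampal CA score as one, 490 at a fold of at least 1.5, and 678 with the title number as a covariate. Leaving out each sample gave 225 (without vehicle L322) to 1755 (without CP2 L298), with 774 without L266, 803 without L292 and 673 without L319. It stayed within 1.5 times with only these groups (1524), DESeq2 (1915), other scalings (1268 and 1276) and no filter (1004). The 177 differences from knockout F were 0 with only those groups, 695 with DESeq2, 90 without the filter, 13 with the covariate, 0 with surrogate variables and 308 over protein-coding genes, and 0 to 838 when a sample was left out. The 507 differences from wild-type M were 1397 with only those groups, 1058 with DESeq2, 0 with the covariate and 0 with surrogate variables, and 33 to 865 when a sample was left out. The cause of these moves was not tested. The difference in reads outside genes kept its direction, at -5.23 to -4.26 percentage points when a sample was left out. Of 88 named genes 85 were called, 26 of them in each fit without a sample and 0 with the covariate, where 85 kept their direction. No paired analysis was possible because the title number differs in every sample and no number is shared between groups. With 3 vehicle samples, the exact test of a single measure cannot go below 0.0179.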
